A study of Homo sapiens with 8 samples.

Results

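Promoter-flanking peaks are stretches of open chromatin that lie near a gene's start but off the promoter itself. They were taken from a table of 62528 peaks deposited by the authors, in which each peak carries 1 annotated transcript. A peak was a member when its nearer edge lay over 1000 bp and at most 10000 bp from the start of that transcript, which gave 12618 peaks, 20.2% of the table. No accessibility value entered the choice. The rest were 15930 promoter peaks within 1000 bp of the start and 33980 distal peaks farther than 10000 bp.

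Accessible chromatin was profiled by ATAC-seq, in which a transposase cuts into open DNA and leaves sequencing adapters there. The cells were JJN3 and KMS11, established lines grown from human multiple myeloma, a tumour of plasma cells. Each line received pomalidomide at 200 nM, GNE-781 at 40 nM, both agents, or the solvent DMSO for 48 h, with 1 library for each line and treatment and 8 libraries in all. The design asks what each agent does alone and in combination, and its cells with added BATF or eGFP are not analysed here. With 1 library per line and treatment, a treatment is replicated only by the other line, and no label says that the libraries came from separate cultures. The p-values therefore speak only of variation among these libraries, which may be technical.

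The DNA beside a promoter often holds enhancers, alternative promoters and binding sites for factors that act on the nearby start, whereas promoters themselves are open in most cell types. EP300, the target of GNE-781 together with its relative CREBBP, is an acetyltransferase that gathers at active enhancers, and GNE-781 blocks its bromodomain, the pocket that holds acetylated lysine. Pomalidomide binds cereblon, the substrate receptor of a ubiquitin ligase, and thereby directs the lymphoid transcription factors IKZF1 and IKZF3 to degradation.

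Some flanking peaks covered a start in another annotation. Of 11993 flanking peaks on chromosomes with RefSeq promoter sequences (GRCh38.p14), 581 overlapped a RefSeq promoter window, which runs from 250 bases before a gene start to 50 after it. Under the combination 13 of these 581 peaks were called, 2.24%, against 5.34% of the 11369 tested flanking peaks off such windows. The windows of 4 of the 13 are printed, chosen after their values were seen. They include each of the 13 that holds TGANTCA, so they do not stand for the 13 as a set. Capitals mark matches on either strand to TGANTCA, the site of AP-1 and BATF proteins, and TGGGAA, the core read by Ikaros proteins.
KCNN3 (chr1:154859827-154860126, minus strand): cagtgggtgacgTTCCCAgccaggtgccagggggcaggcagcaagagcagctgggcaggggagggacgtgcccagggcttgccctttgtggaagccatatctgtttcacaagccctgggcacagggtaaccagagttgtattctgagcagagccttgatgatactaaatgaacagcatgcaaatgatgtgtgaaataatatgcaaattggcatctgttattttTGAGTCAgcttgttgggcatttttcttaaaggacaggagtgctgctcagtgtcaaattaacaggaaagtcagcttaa
LOC101929003 (chr5:1792815-1793114, plus strand): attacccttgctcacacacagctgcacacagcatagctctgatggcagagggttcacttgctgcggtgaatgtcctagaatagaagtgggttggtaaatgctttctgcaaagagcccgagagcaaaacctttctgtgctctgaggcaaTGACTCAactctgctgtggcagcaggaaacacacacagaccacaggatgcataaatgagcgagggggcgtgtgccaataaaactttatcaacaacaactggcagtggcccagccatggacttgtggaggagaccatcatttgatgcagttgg
TNK2-AS1 (chr3:195907826-195908125, plus strand): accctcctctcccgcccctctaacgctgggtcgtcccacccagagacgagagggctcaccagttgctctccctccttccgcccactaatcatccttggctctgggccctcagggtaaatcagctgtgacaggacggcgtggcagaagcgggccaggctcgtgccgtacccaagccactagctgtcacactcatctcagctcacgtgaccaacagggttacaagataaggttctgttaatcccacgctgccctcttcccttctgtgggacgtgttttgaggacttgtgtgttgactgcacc
LOC124901073 (chr5:135456206-135456505, plus strand): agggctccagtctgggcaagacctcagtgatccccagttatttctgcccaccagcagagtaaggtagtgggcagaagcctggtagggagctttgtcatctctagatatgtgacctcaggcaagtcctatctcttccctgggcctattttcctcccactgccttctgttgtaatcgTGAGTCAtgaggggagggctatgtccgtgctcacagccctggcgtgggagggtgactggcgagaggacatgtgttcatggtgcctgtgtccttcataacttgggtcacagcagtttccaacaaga
TGANTCA stood in 3 of the 13 windows, which are the KCNN3, LOC101929003 and LOC124901073 windows printed here, and TGGGAA in 4. Over all 35116 RefSeq windows of the same length the shares were 7.71% and 24%. An interferon factor site (GAAA, any 2 bases, GAAA), TGACGTCA, a cyclic AMP response element, and the TATA box TATAAA were in 0 of the 13, against 3.57%, 1.85% and 11.5% of all windows. The 13 windows had 16 to 300 of their 300 bases inside the called peak, so a match can lie outside it. A match is a description of the letters, and binding was not measured.

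The peak over the KCNN3 window, in a calcium-activated potassium channel gene, held 130 (JJN3) and 44.3 (KMS11) CPM under the combination, 136 (JJN3) and 59 (KMS11) under pomalidomide, 155 (JJN3) and 83.1 (KMS11) under GNE-781, and 143 (JJN3) and 97.1 (KMS11) under DMSO. The combination lay below DMSO in both lines, by little in JJN3. The fitted log2 change was -0.65 ± 0.18 (SE, adjusted p = 0.0221), and it was -0.29 (adjusted p = 0.684) without KMS11 DMSO and -0.31 (0.643) without the KMS11 combination. At the TNK2-AS1 window, inside the kinase gene TNK2, the peak fell alike in the lines (-0.82 in JJN3 and -0.8 in KMS11, adjusted p = 0.0131). That call did not hold without the JJN3 combination (0.124), the KMS11 combination (0.132) or KMS11 DMSO (0.464), nor with DESeq2 (0.122). The peak with the LOC101929003 window, annotated to the mitochondrial ribosome gene MRPL36, fell by 1.02 (log2, SE 0.22, adjusted p = 0.00262, 0.0704 without the JJN3 combination). The LOC124901073 window lay with 243 of its 300 bases in a peak of the transcript CTB-138E5.1 that rose by 2.0 ± 0.33 (adjusted p = 6.17e-05) and kept its call whichever library was left out.

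The libraries held 1366628 to 5435673 counts over all peaks, with JJN3 DMSO the shallowest and the KMS11 combination the deepest. Flanking peaks took 15% to 15.9% of them. The share averaged 15.6% ± 0.323 in JJN3 and 15.2% ± 0.292 in KMS11 (SD, n = 4 each), a difference of 0.322 points that did not pass the exact two-sided permutation test (p = 0.171, Benjamini-Hochberg adjusted over 9 such tests 0.513, smallest possible p 0.0286). Libraries with pomalidomide differed from those without by 0.0985 points, and libraries with GNE-781 from those without by -0.178 (exact permutation p = 0.944 and 0.333, smallest possible 0.0556). The median flanking peak had 11 counts in JJN3 DMSO and 45 in the KMS11 combination, so small changes are least visible in JJN3. Promoters of 8 of 9 plasma cell marker genes carried a peak, with summed levels of 302 to 345 CPM in JJN3 and 232 to 266 CPM in KMS11. Promoter peaks were also present for 10 of 18 B cell markers (168 to 186 CPM in JJN3 and 168 to 212 CPM in KMS11), 4 of 19 T and NK cell markers (97.6 to 113 and 94.1 to 112 CPM), 4 of 14 myeloid markers (36.8 to 56.2 and 69.9 to 79.5 CPM), 4 of 14 stromal and endothelial markers (68.4 to 88.6 and 69.4 to 93 CPM) and 2 of 11 erythroid markers (40.4 to 61.6 and 57.7 to 70.1 CPM). These sums cover unequal numbers of genes. The medians per gene were closer, at 34.8 CPM for plasma cell, 28.7 for erythroid and 26.9 for T and NK cell markers. They were 21.2 CPM for stromal and endothelial, 14.1 for B cell and 11.8 for myeloid markers.

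Flanking peaks lay mostly downstream of the annotated start. Of the 12618, 9161 were downstream, 6988 of them inside the transcript and 2173 past its end, and 3457 (27.4%) were upstream. Their median distance was 4773 bp and their median width 379 bp, near that of distal peaks (375 bp) and well under that of promoter peaks (730 bp). They were annotated to 9620 gene entries, of which 7363 had 1 flanking peak and 2257 had 2 to 10. For 4007 entries there was also a promoter peak, and for 5613 there was none. Many of these entries are pseudogenes, small RNAs and clone-named transcripts, which the annotation treats like any gene. By the distance to the nearest RefSeq start, 5493 of the 11993 peaks (45.8%) were also in the flanking range, 869 were within 1000 bp and 5631 were farther. A filter on mean CPM (2 or more) kept 12574 flanking peaks and removed 44.

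Under the combination the share of flanking peaks called was near that of all peaks, above that of promoter peaks and below that of distal peaks. Calls were made with edgeR's quasi-likelihood test over 62234 peaks, at an adjusted p under 0.05. Under the combination 671 of 12574 flanking peaks were called, 285 higher and 386 lower, or 5.34%, against 4.79% of all peaks (2.11% higher and 2.67% lower), 1.69% of promoter peaks and 6.04% of distal peaks. Under pomalidomide 188 were called, 158 higher and 30 lower, or 1.5%, against 1.25% of all peaks (1.03% higher and 0.228% lower), 0.49% of promoter and 1.52% of distal peaks. Under GNE-781 alone 2 fell and 0 rose, or 0.0159% against 0.0209% of all peaks, with 857 flanking peaks at an unadjusted p under 0.05 and 0 called by DESeq2, which had 271 at that level. Classes were not tested against each other. In each of 13 fits with another scaling, filter, library set or tool the flanking share under the combination stayed above the promoter share, with 0.756% against 0.239% by DESeq2 and 0.79% against 0.239% without the KMS11 combination. The flanking share was not below the distal share without the KMS11 combination, and with DESeq2 it lay close to it (0.756% against 0.773%). Bulk profiles cannot tell a change in all cells from a change in the share of cells that are open at a site.

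**Figure D1:**
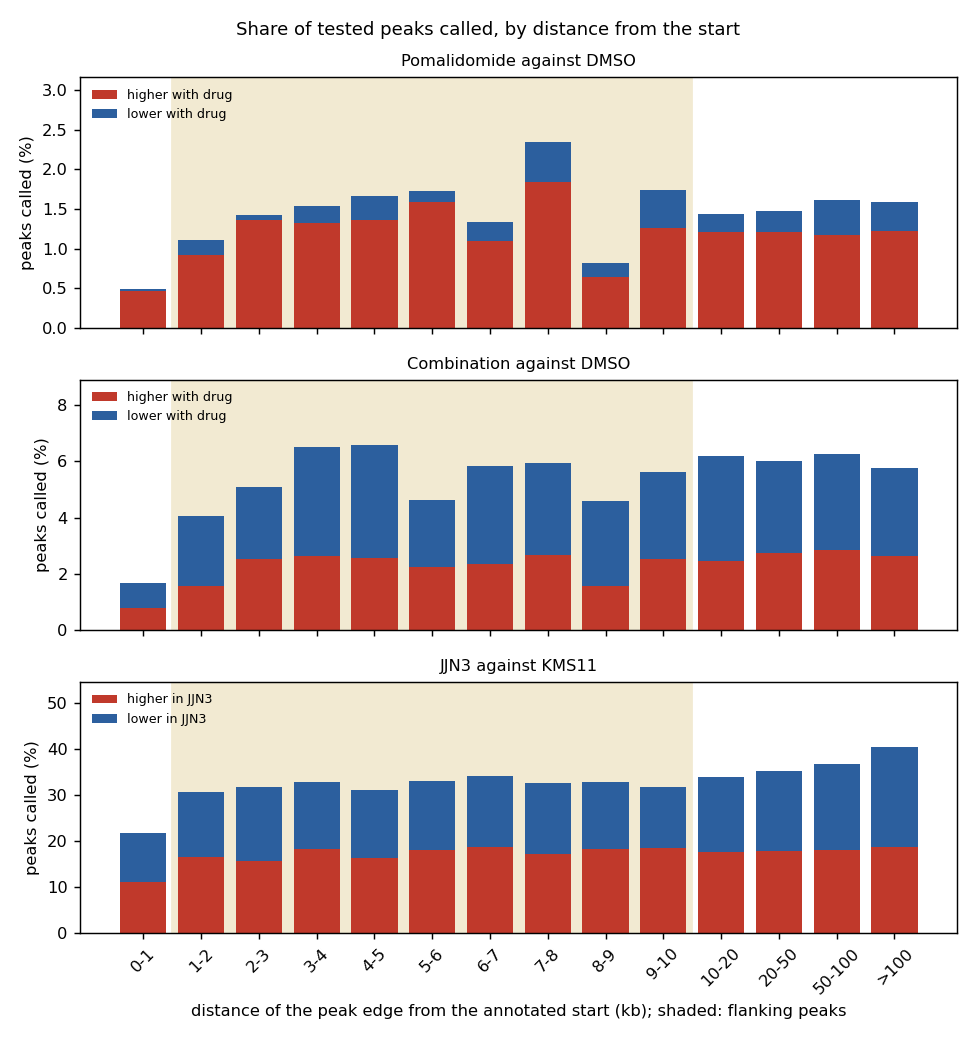
Share of tested peaks called (vertical axis, %) by distance of the peak edge from the annotated start (horizontal axis, kb), split by direction, for pomalidomide over DMSO, the combination over DMSO and JJN3 over KMS11. Under the combination the share is 1.69% within 1 kb of the start, 4.07% at 1 to 2 kb, 6.59% at 4 to 5 kb and 6.17% at 10 to 20 kb.

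Within the class the share called under the combination was lowest next to the promoter, as the plot of shares by distance shows. It was 4.07% at 1 to 2 kb, 5.1% at 2 to 3 kb, 6.5% at 3 to 4 kb and 6.59% at 4 to 5 kb, and 5.3% over 5 to 10 kb. Beyond 5 kb the bins of 1 kb went up and down, from 4.58% at 8 to 9 kb to 5.95% at 7 to 8 kb. These shares were not tested against each other. Just inside the lower limit of the class, at 1 to 1.2 kb, the share was 3.74%, and just outside it, at 0.8 to 1 kb, 3.68%. At the upper limit it was 5.61% inside, at 9 to 10 kb, and 5.07% outside, at 10 to 11 kb. Upstream peaks were called in 5.75% and downstream peaks in 5.18% of cases. Promoter peaks are more abundant, with a median of 24.1 CPM against 8.57 CPM for flanking peaks. With all peaks split into 4 equal bins by mean CPM, the shares called in the top bin were 9.02% of flanking, 1.47% of promoter and 13.4% of distal peaks. In the bottom bin they were 2.45% of flanking, 1.3% of promoter and 2.76% of distal peaks. The direction of the calls also varied with abundance. Of flanking calls 68.4% were higher in the bottom bin and 32.1% in the top bin. For distal calls these were 68.3% and 32%, and for promoter calls 40% and 46.4%. The medians of all tested peaks, called or not, moved too. In the bottom and top bins the median log2 change was 0.166 and -0.072 for flanking peaks. It was 0.175 and -0.117 for distal peaks and 0.048 and 0 for promoter peaks.

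**Figure D2:**
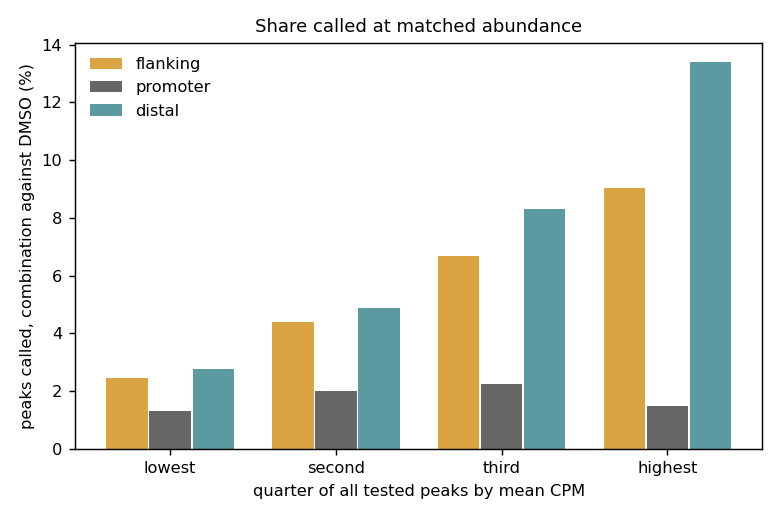
Share of peaks called under the combination (vertical axis, %) in 4 equal bins of all tested peaks by mean CPM (horizontal axis), with bars for flanking, promoter and distal peaks. The flanking bar stands at 9.02% in the top bin, where the promoter bar stands at 1.47%.

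With both agents, chromatin opened at flanking peaks of KIF25, TAF2 and FAM53B and closed at flanking peaks of TXNDC5, CD47 and the transcript KB-1683C8.1. At KIF25, a kinesin motor gene, the peak chr6:168007371-168008096 inside the transcript held 36.4 (JJN3) and 37.8 (KMS11) CPM under the combination, 21.7 (JJN3) and 35.4 (KMS11) under pomalidomide, 9.62 (JJN3) and 7.76 (KMS11) under GNE-781, and 9.02 (JJN3) and 5.18 (KMS11) under DMSO. The 4 libraries with pomalidomide lay above the 4 without it. The combination was 2.57 ± 0.31 above DMSO on the log2 scale (adjusted p = 1.91e-07), or 5.92-fold. In TAF2, a subunit gene of the general transcription factor TFIID, the peak chr8:119739047-119739466 held 19.4 (JJN3) and 17.8 (KMS11) CPM under the combination, 15 (JJN3) and 12.9 (KMS11) under pomalidomide, 3.21 (JJN3) and 1.94 (KMS11) under GNE-781, and 4.51 (JJN3) and 1.81 (KMS11) under DMSO. It rose by 2.79 ± 0.41 (adjusted p = 8.29e-06), again with no overlap between libraries with and without pomalidomide. FAM53B, at chr10:124736271-124736861, gave 20.8 (JJN3) and 19.4 (KMS11) CPM under the combination, 14 (JJN3) and 17.8 (KMS11) under pomalidomide, 6.41 (JJN3) and 5.82 (KMS11) under GNE-781, and 5.26 (JJN3) and 2.85 (KMS11) under DMSO, a rise of 2.48 ± 0.38 (adjusted p = 1.81e-05, 0.0777 without KMS11 DMSO).

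The other rises with the lowest adjusted p were at RP11-15B24.5 (1.54 ± 0.23), RP11-354K1.2 (1.26 ± 0.2), Y_RNA (2.72 ± 0.43), RP1-127D3.4 (2.33 ± 0.37) and RP11-1070N10.3 (1.8 ± 0.29), all higher in both lines. Y_RNA is the name of a family of small RNA genes, and the member beside the peak was not resolved. The Y_RNA call was lost without KMS11 DMSO (adjusted p = 0.0623) or the KMS11 combination (0.0932), and that of RP1-127D3.4 without KMS11 DMSO (0.0604).

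TXNDC5, which encodes a protein disulfide isomerase of the endoplasmic reticulum, had the fall with the lowest adjusted p, in the peak chr6:7897840-7898490 at 1752 bp inside the transcript. It held 15 (JJN3) and 7.66 (KMS11) CPM under the combination, 37.3 (JJN3) and 24.2 (KMS11) under pomalidomide, 33.3 (JJN3) and 14.9 (KMS11) under GNE-781, and 48.1 (JJN3) and 34.2 (KMS11) under DMSO. Within each line the combination was lowest and DMSO highest, and the log2 fall was 1.95 (SE 0.25, adjusted p = 6.85e-07), or 3.86-fold. This was also the 1 flanking peak, of 12574, called between the combination and pomalidomide alone, where 0.0112% of all peaks were called (0.00161% higher and 0.00964% lower). That call was lost by DESeq2 and without either combination library or KMS11 pomalidomide. CD47, whose surface protein tells macrophages not to engulf the cell, had a peak chr3:108100111-108101455 upstream of the start with 17.5 (JJN3) and 22.4 (KMS11) CPM under the combination, 32.3 (JJN3) and 37.3 (KMS11) under pomalidomide, 39.8 (JJN3) and 31.7 (KMS11) under GNE-781, and 48.9 (JJN3) and 61.6 (KMS11) under DMSO. Both combination values lay below the other 6, and the fall was 1.46 (SE 0.22, adjusted p = 9.55e-06), and the lines alike at -1.45 in JJN3 and -1.43 in KMS11. At KB-1683C8.1 the levels were 6.3 (JJN3) and 2.85 (KMS11) CPM under the combination, 21.3 (JJN3) and 7.29 (KMS11) under pomalidomide, 15.4 (JJN3) and 3.56 (KMS11) under GNE-781, and 39.1 (JJN3) and 15 (KMS11) under DMSO, a fall of 2.5 (SE 0.34, adjusted p = 2.12e-06).

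The remaining falls named by the same rule were at RP11-620J15.4 (-1.46 ± 0.21), RP11-315O6.2 (-1.92 ± 0.27), RP11-311H10.7 (-1.93 ± 0.3), RN7SL28P (-2.1 ± 0.33) and COX5BP8 (-2.25 ± 0.36), lower in both lines at each. Of the 16 peaks named for rising or falling, 12 kept their call in edgeR whichever library was left out. TXNDC5 (highest adjusted p 0.00678), KB-1683C8.1 (0.00271), KIF25 (0.0164), CD47 (0.0193) and TAF2 (0.0441) were among them. RP11-311H10.7 lost its call without the KMS11 combination (0.0655).

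**Figure D3:**
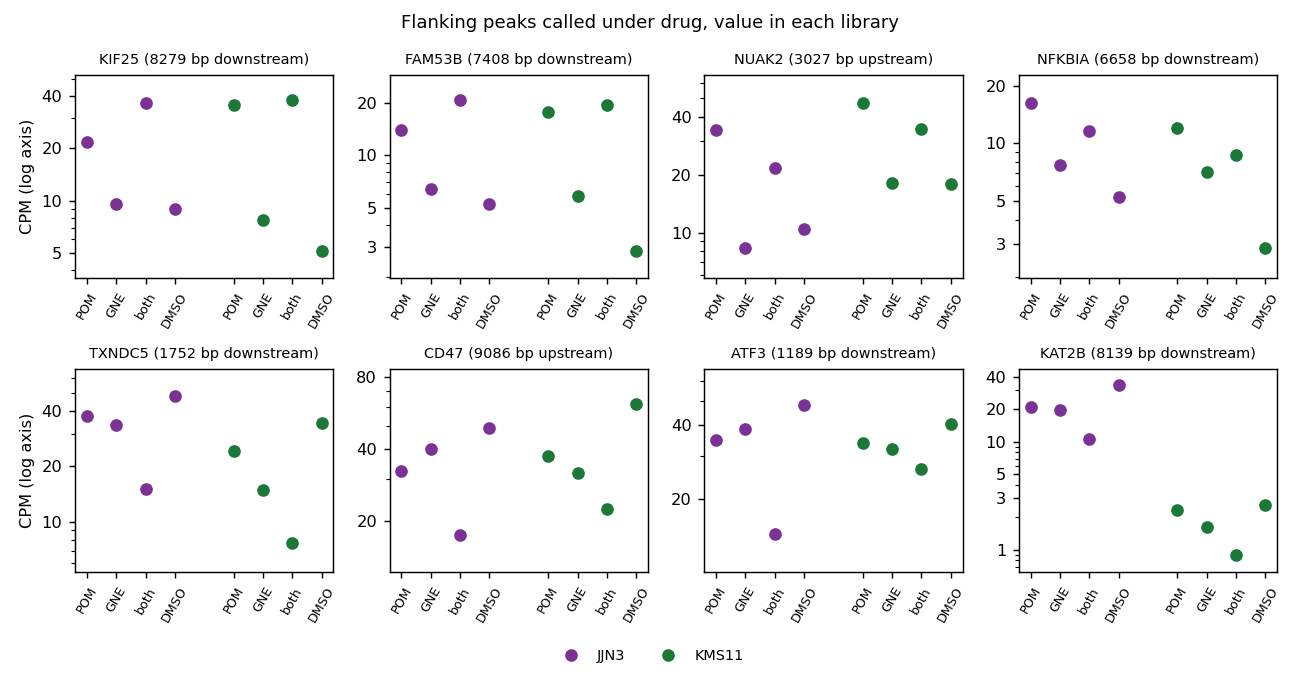
CPM (vertical axes, log scale) of 8 flanking peaks in each of the 8 libraries (horizontal axes, treatments of JJN3 left and of KMS11 right), 1 point per library. KIF25, FAM53B, NUAK2 and NFKBIA stand higher with pomalidomide, and TXNDC5, CD47, ATF3 and KAT2B are lowest under the combination in each line.

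Gene lists of myeloma biology held at most 3 called flanking peaks each under the combination, and their shares called stand beside 4.79% of all peaks. In lists this short 1 call moves the share by several points. Of 29 flanking peaks of myeloma regulators 2 rose and 1 fell (10.3%, median log2 change 0.01 against 0 over all peaks). POU2AF1, a B cell coactivator of OCT factors, had both directions. Its peak chr11:111359171-111359475 held 35.9 (JJN3) and 5.88 (KMS11) CPM under the combination, 20.3 (JJN3) and 3 (KMS11) under pomalidomide, 10.9 (JJN3) and 2.91 (KMS11) under GNE-781, and 9.77 (JJN3) and 2.33 (KMS11) under DMSO, and rose by 1.65 ± 0.38 (adjusted p = 0.00439, 0.137 without the JJN3 combination and 0.177 without JJN3 DMSO). Its peak chr11:111371164-111371585 held 25.2 (JJN3) and 1.6 (KMS11) CPM under the combination, 39.3 (JJN3) and 8.36 (KMS11) under pomalidomide, 28.9 (JJN3) and 2.59 (KMS11) under GNE-781, and 35.3 (JJN3) and 9.32 (KMS11) under DMSO, and fell by 1.17 (SE 0.34, adjusted p = 0.0274, 0.489 without the KMS11 combination and 0.452 without KMS11 DMSO). The POU2AF1 promoter peak stood at -0.38 (adjusted p = 0.324). RUNX3, a RUNX factor gene, rose by 1.28 ± 0.33 (adjusted p = 0.0122, 0.223 without the JJN3 combination and 0.254 without KMS11 DMSO).

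Among Ikaros, cereblon, p300 and BET genes 0 of 9 flanking peaks rose and 2 fell (22.2%, median 0.06). In KAT2B, the acetyltransferase PCAF, the peak chr3:20048837-20049554 held 10.7 (JJN3) and 0.89 (KMS11) CPM under the combination, 21 (JJN3) and 2.36 (KMS11) under pomalidomide, 19.9 (JJN3) and 1.62 (KMS11) under GNE-781, and 33.8 (JJN3) and 2.59 (KMS11) under DMSO. Its level was far lower in KMS11, where it rested on few counts, and the fall was 1.61 (SE 0.4, adjusted p = 0.00954, 0.23 without the JJN3 combination, 0.306 without JJN3 DMSO and 0.0866 without the KMS11 combination). The IKZF1 peak fell by 1.57 (SE 0.49, adjusted p = 0.0446), with an adjusted p of 0.0536 without JJN3 pomalidomide, 0.207 without the JJN3 combination, 0.299 without JJN3 DMSO, 0.285 without the KMS11 combination and 0.153 without KMS11 DMSO. A list of the AP-1 and BATF family, in which other factor genes such as NFE2L1 and MAFG also stand, had 1 rise and 1 fall. These were among 13 flanking peaks tested (15.4%, median -0.04), while a further peak of the list did not pass the filter. ATF3, a stress-induced factor of this family, had a peak at chr1:212566523-212567501 with 14.5 (JJN3) and 26.5 (KMS11) CPM under the combination, 34.7 (JJN3) and 33.7 (KMS11) under pomalidomide, 38.5 (JJN3) and 32 (KMS11) under GNE-781, and 48.1 (JJN3) and 40.4 (KMS11) under DMSO, a fall of 0.98 (SE 0.23, adjusted p = 0.00511) that was larger in JJN3 (-1.68) than in KMS11 (-0.59), with an adjusted p of 0.204 without the JJN3 combination. NFE2L1, a regulator of proteasome genes, rose by 1.21 ± 0.35 (adjusted p = 0.0256), and had 0.101 without the JJN3 combination, 0.0875 without JJN3 DMSO, 0.281 without the KMS11 combination and 0.317 without KMS11 DMSO.

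Of 22 flanking peaks of cell cycle genes 0 rose and 3 fell (13.6%, median -0.16). CCNE2, which encodes cyclin E2, held 2 of the 3. Its peak chr8:94885782-94886168 had 3.39 (JJN3) and 2.85 (KMS11) CPM under the combination, 10.7 (JJN3) and 7.29 (KMS11) under pomalidomide, 8.34 (JJN3) and 4.85 (KMS11) under GNE-781, and 15.8 (JJN3) and 14.5 (KMS11) under DMSO, a fall of 2.28 (SE 0.39, adjusted p = 9.82e-05, 0.0579 without KMS11 DMSO), while the CCNE2 promoter peak stood at -0.24 (adjusted p = 0.528). The nearer CCNE2 peak, 3725 bp from the start, fell by 1.17 (SE 0.34, adjusted p = 0.0279), and CDK6, the kinase partner of D cyclins, by 0.83 (SE 0.25, adjusted p = 0.0372). Both calls were lost without the JJN3 combination (0.0534 and 0.0559), the KMS11 combination (0.568 and 0.668) or KMS11 DMSO (0.449 and 0.796).

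ETS factor genes, in a list with the RUNX partner gene CBFB, had 2 rises in 14 flanking peaks (14.3%, median 0.44). FLI1, an ETS factor, rose by 1.71 ± 0.4 at a peak with 23.8 (JJN3) and 8.73 (KMS11) CPM under the combination, 17 (JJN3) and 4.72 (KMS11) under pomalidomide, 5.13 (JJN3) and 5.82 (KMS11) under GNE-781, and 6.01 (JJN3) and 3.11 (KMS11) under DMSO (adjusted p = 0.00575). That call needed each of 4 libraries, with 0.102 and 0.0734 without the combination and DMSO libraries of JJN3 and 0.0655 and 0.0758 without those of KMS11. ETV1 rose by 2.4 ± 0.59 (adjusted p = 0.00794, 0.209 without the KMS11 combination and 0.41 without KMS11 DMSO). Single peaks rose at BIK, which encodes a BH3-only inducer of apoptosis (1.33 ± 0.37, adjusted p = 0.0215, 0.255 without the JJN3 combination and 0.517 without KMS11 DMSO), and at the B cell adaptor gene BANK1. The BANK1 peak had 50 combination counts against 5 DMSO counts, a ratio of 6.76 scaled for depth (95% counting interval 2.71 to 21.7), with a call (adjusted p = 0.00853) lost without the JJN3 combination (0.0518), the KMS11 combination (0.115) or KMS11 DMSO (0.312). The lists of plasma cell surface and secretory (18 flanking peaks), interferon (10), endoplasmic reticulum stress (7) and mTOR genes (8) and of T and NK (7), myeloid (3), stromal and endothelial (10) and erythroid markers (4) and ribosomal proteins (12) had 0 called. BIK was the 1 call among 19 flanking peaks of apoptosis genes (5.26%, median -0.23), near the share of all peaks. BANK1 was the 1 call among 12 of B cell markers (8.33%, median 0.05). CD47 was the 1 call among 23 adhesion peaks (4.35%, median -0.13). Of the list calls under the combination, DESeq2 ended those at both POU2AF1 peaks, RUNX3, KAT2B, NFE2L1, ATF3, NFKBIA, CDK6, the nearer CCNE2 peak, FLI1 and BIK, with adjusted p values of 0.0549 to 0.711. DESeq2 gave an adjusted p to only 36 of the 43 named combination peaks, so a call missing from this list need not have held. Scaling by promoter peaks ended the list calls at the POU2AF1 fall (0.0572), IKZF1 (0.0572), CDK6 (0.0604) and the nearer CCNE2 peak (0.0709).

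Few promoter peaks of the same genes were called beside a called flanking peak. Under the combination the share called in the same direction was still larger than over all pairs, while under pomalidomide 0 were called. The shares were not tested against those of all pairs. Each flanking peak was paired with its gene's promoter peak nearest the start, so a promoter peak can enter several pairs. Over all 5642 pairs the promoter peak rose in 48 and fell in 52 under the combination. Among the 285 flanking peaks that rose under the combination, 133 had a gene with a promoter peak, which rose in 3 pairs and fell in 0. Their flanking peaks had a median log2 change of 1.48 and their promoter peaks 0.01. Among the 386 that fell, 184 had a promoter peak, which fell in 6 pairs and rose in 1, with medians of -1.22 and -0.07. Under pomalidomide the promoter peak was called in 0 of 85 pairs with a rising flanking peak, with medians of 1.46 and 0.04, and in 0 of 8 with a falling one. Over all pairs it rose in 29 and fell in 3. At FAM53B the promoter peak was at 0.02 (adjusted p = 0.987), at TAF2 at -0.35 (0.425), at CD47 at -0.09 (0.88) and at TXNDC5 at -0.12 (0.913). Over all 5642 pairs Pearson's r across genes was 0.07 for the combination, where pairs share their libraries and genes are not replicates.

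**Figure D4:**
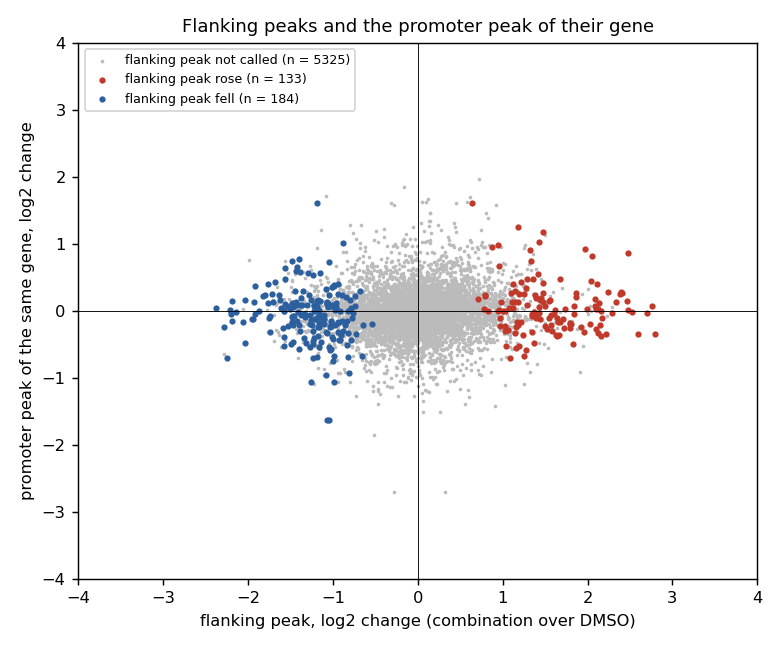
Log2 change of 5642 flanking peaks (horizontal axis) and of the promoter peak of the same gene (vertical axis), combination over DMSO, 1 point per flanking peak, coloured where the flanking peak was called. The 133 rising and 184 falling flanking peaks spread along the horizontal axis, while the medians of their promoter peaks are 0.01 and -0.07.

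A test of each peak against the summed peaks of its gene, fitted over 50234 peaks of genes with more than 1 peak, asked whether the flanking peak departed from its neighbours under the combination. Of 9723 flanking peaks 72 were higher and 65 lower than their gene, 1.41% against 1.53% of all peaks (0.836% higher and 0.699% lower), 0.291% of promoter peaks and 1.98% of distal peaks. Of the 548 flanking peaks that had been called and entered this test, 115 differed from their gene. In simulated data the test also called unchanged peaks, mostly in genes with another changed peak. A call can therefore come from a change at another peak of the gene. The count of 137 became 9 without the KMS11 combination, 4 without KMS11 DMSO, 51 without the JJN3 combination and 81 without JJN3 DMSO. The lowest adjusted p values belonged to TAF2 (2.79 above its gene), KB-1683C8.1 (-2.36), FAM53B (2.62), TMEM245 (2.12) and RP11-23J9.4 (-2.52). The TMEM245 peak held 13.6 (JJN3) and 34.4 (KMS11) CPM under the combination, 9 (JJN3) and 30.4 (KMS11) under pomalidomide, 6.41 (JJN3) and 5.17 (KMS11) under GNE-781, and 3.76 (JJN3) and 7.25 (KMS11) under DMSO. Its rise of 2.15 ± 0.35 (adjusted p = 4.35e-05) lost its call without the KMS11 combination (0.0739) or KMS11 DMSO (0.147). The RP11-23J9.4 peak fell by 1.78 (SE 0.43, adjusted p = 0.00682), with 0.128 without the JJN3 combination, 0.0508 without the KMS11 combination and 0.111 without KMS11 DMSO.

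Few genes had more than 1 called flanking peak. Under the combination 644 gene entries held the 671 calls, 617 of them with 1 and 27 with 2. In 19 of the 27 both peaks moved one way, among them CCNE2, TXNDC5, TNK2 and the epithelial sodium channel gene SCNN1A downward and NUAK2 and CCDC91 upward. In 8 the peaks moved in opposite directions, namely AGK, IL6R, KCNN3, POU2AF1, PSEN2, RP11-23J9.4, TMC1 and TMEM245. At AGK, a lipid kinase gene of mitochondria, a peak at 2383 bp fell by 0.77 (SE 0.22, adjusted p = 0.0237) and another at 7432 bp rose by 1.64 ± 0.45 (adjusted p = 0.0202). Leaving out any combination or DMSO library ended both AGK calls, with adjusted p values of 0.0536 to 0.431 for the fall and 0.0624 to 0.338 for the rise, and DESeq2 ended that of the fall (0.665).

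Pomalidomide alone mostly opened flanking peaks, 158 against 30 that fell. CTB-138E5.1, the transcript beside the printed LOC124901073 window, held 36.3 (JJN3) and 20.2 (KMS11) CPM under pomalidomide, 10.9 (JJN3) and 3.88 (KMS11) under GNE-781, 31.5 (JJN3) and 16.4 (KMS11) under the combination, and 9.02 (JJN3) and 3.62 (KMS11) under DMSO in the peak chr5:135456263-135456845. In each line both libraries with pomalidomide lay above both without it. The rise was 2.25 ± 0.32 (adjusted p = 1.52e-05), and of the 21 named peaks under pomalidomide it alone passed in all 8 fits that drop a library (highest adjusted p 0.0284). NUAK2, an AMPK-related kinase gene, had a peak chr1:205324782-205325594 upstream of its start with 34 (JJN3) and 47.4 (KMS11) CPM under pomalidomide, 8.34 (JJN3) and 18.1 (KMS11) under GNE-781, 21.8 (JJN3) and 34.4 (KMS11) under the combination, and 10.5 (JJN3) and 17.9 (KMS11) under DMSO, a rise of 1.51 ± 0.25 (adjusted p = 0.000131, 0.0976 without KMS11 DMSO). KIF25 rose by 2.21 ± 0.31 (adjusted p = 1.52e-05, 0.107 without KMS11 pomalidomide and 0.186 without KMS11 DMSO), and RCOR3, a corepressor gene of the CoREST family, by 1.83 ± 0.3 (adjusted p = 0.000126, 0.365 without KMS11 pomalidomide). GPR182, a G protein-coupled receptor gene, rose by 1.75 ± 0.26 (adjusted p = 3.02e-05, 0.114 without KMS11 DMSO). The others named were RP13-616I3.1 (1.21), RP11-23J9.4 (1.27) and GAPDHP27 (1.48), each without a call when KMS11 DMSO was left out (0.0737, 0.216 and 0.0615), and for RP11-23J9.4 also without KMS11 pomalidomide (0.124).

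The flanking peaks of NF-kB response genes held 3 rises and 0 falls in 29 (10.3%, beside 1.25% of all peaks called), with a median log2 change of 0.38 against 0.02 over all peaks and 22 of 29 above 0. The rises were at genes whose products restrain NF-kB. NFKBIA, the inhibitor that holds NF-kB in the cytoplasm, had a peak chr14:35397547-35398088 past its transcript end with 16.3 (JJN3) and 12 (KMS11) CPM under pomalidomide, 7.69 (JJN3) and 7.11 (KMS11) under GNE-781, 11.6 (JJN3) and 8.73 (KMS11) under the combination, and 5.26 (JJN3) and 2.85 (KMS11) under DMSO. Both pomalidomide values were the highest of their line, and the rise was 1.9 ± 0.4 (adjusted p = 0.00375, 0.143 without KMS11 pomalidomide and 0.347 without KMS11 DMSO). TNIP1, a partner of A20, held 26.3 (JJN3) and 29.2 (KMS11) CPM under pomalidomide, 13.5 (JJN3) and 5.5 (KMS11) under GNE-781, 20.4 (JJN3) and 18.9 (KMS11) under the combination, and 6.76 (JJN3) and 14 (KMS11) under DMSO (1.26 ± 0.3, adjusted p = 0.0137, 0.249 without JJN3 DMSO and 0.438 without KMS11 pomalidomide). TNFAIP3, which encodes A20 itself, held 12.3 (JJN3) and 18.4 (KMS11) CPM under pomalidomide, 6.41 (JJN3) and 5.82 (KMS11) under GNE-781, 7.27 (JJN3) and 9.62 (KMS11) under the combination, and 3.01 (JJN3) and 7.51 (KMS11) under DMSO (1.43 ± 0.36, adjusted p = 0.0227). Its call was lost without either pomalidomide library (0.0613 for JJN3 and 0.458 for KMS11) or either DMSO library (0.162 and 0.228). Under the combination only NFKBIA passed (1.42 ± 0.41, adjusted p = 0.0294), and lost its call without the combination or DMSO library of JJN3 (0.106 and 0.0541) or of KMS11 (0.255 and 0.479). DESeq2 ended the pomalidomide calls at NFKBIA (0.158), TNIP1 (0.335) and TNFAIP3 (0.484), and scaling by promoter peaks those at TNIP1 (0.0554) and TNFAIP3 (0.0615). The share called in this list was 3.45% under the combination, beside 4.79% of all peaks. The difference between the comparisons was not tested, and they share the DMSO libraries. The promoter peaks stood at -0.01 for NFKBIA and 0.05 for TNIP1 under pomalidomide.

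Other list calls under pomalidomide were rises at ETS1, an ETS factor gene (0.8 ± 0.2, adjusted p = 0.0247, 1 of 14 flanking peaks of its list), and ITGAM, the gene of integrin alpha M (0.85 ± 0.23, adjusted p = 0.0411). ITGAM stands in the myeloid marker list, of whose 3 flanking peaks it was the 1 called, with a list median of 0.85. Both calls were lost when either pomalidomide or either DMSO library was left out, with adjusted p values of 0.0855 to 0.326 for ETS1 and 0.151 to 0.394 for ITGAM, and with DESeq2 (0.293 and 0.476) or scaling by promoter peaks (0.0548 and 0.0892). The lists not named in this or the preceding paragraph had 0 flanking peaks called under pomalidomide.

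Falls under pomalidomide were fewer, and DESeq2 ended the calls of the 8 named ones (adjusted p = 0.068 to 0.786). RN7SL28P, a pseudogene of the signal recognition particle RNA, held 7.66 (JJN3) and 8.79 (KMS11) CPM under pomalidomide, 10.3 (JJN3) and 9.38 (KMS11) under GNE-781, 4.85 (JJN3) and 5.88 (KMS11) under the combination, and 20.3 (JJN3) and 25.9 (KMS11) under DMSO at chr4:184283151-184283632. DMSO was highest in both lines, and the fall was 1.5 (SE 0.31, adjusted p = 0.00284, 0.242 without KMS11 pomalidomide and 0.278 without KMS11 DMSO). Other falls lay between -1.55 at LINC00887 and -1.07 at RP11-501O2.5, with RP11-311H10.7, ADTRP, COX5BP8 and STAU2 between them. Without KMS11 DMSO these 6 had adjusted p values of 0.126, 0.156, 0.332, 0.464, 0.201 and 0.384 in the order given. Without KMS11 pomalidomide all of them but RP11-501O2.5 lost their calls (0.234 to 0.495), without JJN3 pomalidomide RP11-501O2.5, ADTRP, COX5BP8 and STAU2 (0.0849 to 0.201), and without JJN3 DMSO LINC00887 and COX5BP8 (0.0867 and 0.14). The peak past the end of HSP90AA1, the inducible HSP90 gene, held 3.67 (JJN3) and 9.43 (KMS11) CPM under pomalidomide, 7.05 (JJN3) and 8.08 (KMS11) under GNE-781, 4.36 (JJN3) and 4.27 (KMS11) under the combination, and 4.51 (JJN3) and 30.8 (KMS11) under DMSO. KMS11 DMSO alone stood high. The fitted fall was 1.47 (SE 0.36, adjusted p = 0.02), and without KMS11 DMSO the change was 0.2 (adjusted p = 0.979), without KMS11 pomalidomide the adjusted p was 0.459 and without JJN3 pomalidomide 0.0918.

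GNE-781 alone moved 2 flanking peaks past the threshold, near a pseudogene and a clone-named transcript. COX5BP8, 9938 bp upstream, held 5.13 (JJN3) and 5.5 (KMS11) CPM under GNE-781, 8.66 (JJN3) and 7.93 (KMS11) under pomalidomide, 5.33 (JJN3) and 3.56 (KMS11) under the combination, and 24.8 (JJN3) and 17.3 (KMS11) under DMSO, a fall of 1.89 (SE 0.37, adjusted p = 0.0289). KB-1683C8.1, described above for the combination, fell by 1.64 (SE 0.34, adjusted p = 0.0362). DMSO was highest in each line at both. COX5BP8 lost its call without 6 of the 8 libraries, with adjusted p values of 0.053 to 0.649, and KB-1683C8.1 without any of the 8, with 0.0579 to 0.802. DESeq2 gave 0.904 at both. No list had a called flanking peak.

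More flanking peaks separated the combination from GNE-781 than from pomalidomide. Against GNE-781, 142 flanking peaks were higher and 12 lower, or 1.22% against 1.09% of all peaks (0.999% higher and 0.0948% lower), and against pomalidomide only TXNDC5 was called. These comparisons share the combination libraries, and the number of calls was not tested between them. A combination effect unequal to the single-agent changes added together was called at 0 flanking peaks by edgeR and by DESeq2, with 346 and 53 of 12574 at an unadjusted p under 0.05. The 5 with the lowest p were at UBL7 (-2.93 ± 0.83), RP11-323I1.1 (2.27 ± 0.65), RNU6-348P (-2.14 ± 0.64), ENPEP (2.0 ± 0.6) and RP11-482M8.1 (-1.95 ± 0.59), each with an adjusted p of 1.

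The lines differed at many more flanking peaks than any drug changed. JJN3 was compared with KMS11 over 4 libraries each, which replicate the line across treatments and not across cultures, and a call also needed a 2-fold change. In JJN3 2177 flanking peaks were higher and 1876 lower, 4053 in all or 32.2%, against 31.9% of all peaks (16.1% higher and 15.8% lower), 21.7% of promoter peaks and 36.6% of distal peaks. In the 4 bins by mean CPM, lowest first, the shares called were 37.2%, 31.6%, 30.9% and 28.3% of flanking peaks and 40.6%, 38.1%, 30.4% and 13.2% of promoter peaks. The promoter share lay above the flanking share in the lowest 2 bins, and below it by the widest margin in the top bin. At 3415 of the 4053 the libraries of the lines did not overlap, as was the case at 39.8% of all tested flanking peaks and 42.3% of all peaks.

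OR4S2, an olfactory receptor gene, had the highest difference. Its peak chr11:55657867-55658567 past the transcript end held 58, 53.9, 47.5 and 54.1 CPM in JJN3 (pomalidomide, GNE-781, combination, DMSO) and 0 in the 4 KMS11 libraries. With 428 counts against 0 this was at least 309-fold higher in JJN3, taking 3 counts over the group as the floor. TSPAN2, a tetraspanin gene, held 46.7, 38.5, 46.5 and 44.3 CPM in JJN3 and 0.214, 0.323, 0.356 and 2.07 CPM in KMS11, in the same order of treatments, and was 5.93 ± 0.3 higher in JJN3 on the log2 scale (adjusted p = 4.19e-26). Its promoter peak was higher too, by 4.62. ZEB2, a zinc finger factor gene, held 11.7, 10.9, 11.6 and 8.27 CPM in JJN3 and 0.429, 0, 0.178 and 0.259 CPM in KMS11 in a peak inside its transcript. That is 5.32 ± 0.52 higher in JJN3, while its promoter peak was at 0.48 (adjusted p = 0.192). NCOA4, which encodes the receptor that takes ferritin to the lysosome, gave 43.3, 56.4, 36.4 and 38.3 CPM in JJN3 and 2.79, 1.29, 0.534 and 1.29 CPM in KMS11, or 4.84 ± 0.26 higher in JJN3, with its promoter peak at 0.14 (adjusted p = 0.508). Also named were UPK3B, with 167 JJN3 counts against 4 KMS11 counts, and VN1R11P, with 59 against 3 and a depth-scaled ratio of 42.6 (95% counting interval 13.9 to 213).

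Among peaks lower in JJN3, MID1IP1-AS1 on the X chromosome held 0 in the 4 JJN3 libraries and 20.6, 21, 22.8 and 23.3 CPM in KMS11. With 0 counts against 379 it was at least 58.3-fold lower in JJN3, and its promoter peak was 0.96 lower on the log2 scale. At NFIB, a nuclear factor I gene, the peak chr9:14314350-14314591 had 0 counts in JJN3 and 7.5, 4.85, 4.81 and 7.25 CPM in KMS11, at least 16.2-fold lower in JJN3, with its promoter peak at -0.18 (adjusted p = 0.314). ALG1L14P had 0 JJN3 counts against 78 and was at least 12-fold lower. Beside IGHV3-48, an immunoglobulin heavy chain variable segment with near-identical relatives among which reads could be split, 2 JJN3 counts stood against 409, a ratio of 0.0106 (95% counting interval 0.00128 to 0.0385). MARCKS, a membrane substrate of protein kinase C, held 0.333, 1.92, 0 and 0.752 CPM in JJN3 and 17.8, 19.4, 22.3 and 15.3 CPM in KMS11 upstream of its start. It was lower in JJN3 by 4.81 (SE 0.41), and its promoter peak by 3.52. RP11-726G1.1 had 2 JJN3 counts against 137. The 12 named line differences kept their calls in each alternative in which they were tested, and ALG1L14P fell under the filter in 3 fits without a KMS11 library.

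**Figure D5:**
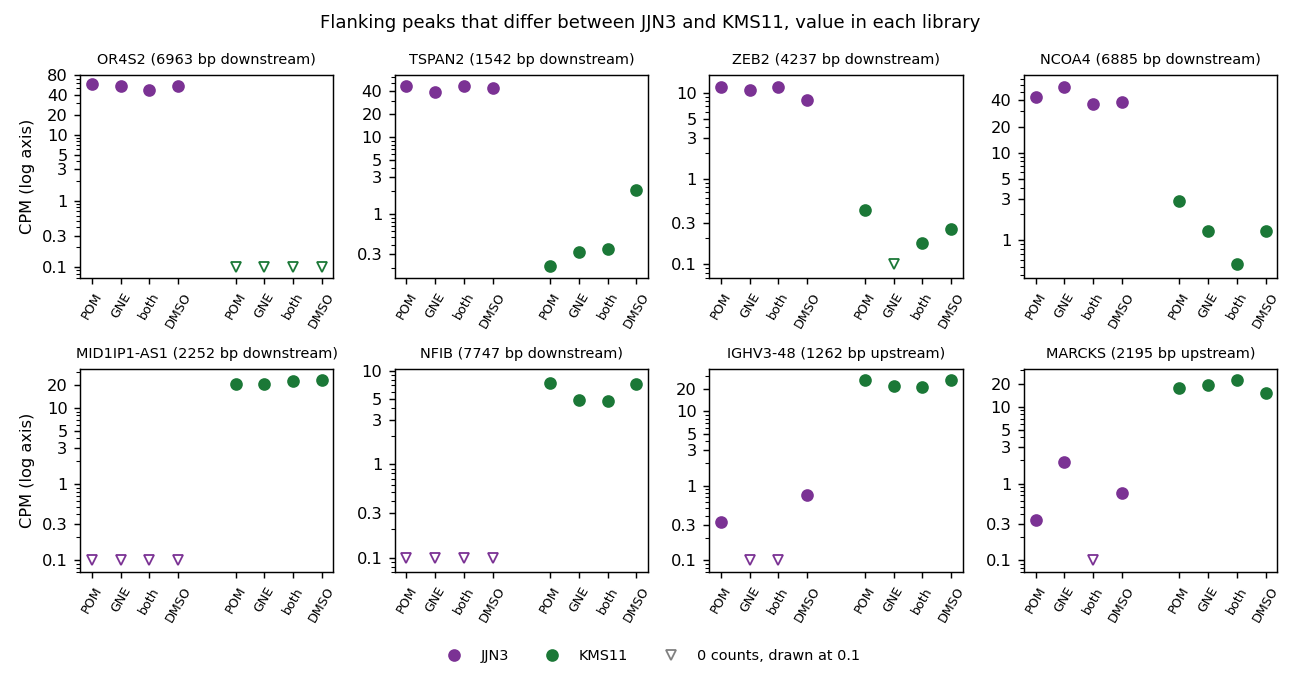
CPM (vertical axes, log scale) of 8 flanking peaks in each library, with the 4 JJN3 libraries left and the 4 KMS11 libraries right (horizontal axes) and open triangles for 0 counts drawn at 0.1. The upper row is higher in JJN3 and the lower row lower, with no overlap between the lines in any panel.

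Between lines the promoter peak was higher in JJN3 in 550 of the 5642 pairs and lower in 617. In the 1026 pairs with a flanking peak higher in JJN3 it was higher in 264 and lower in 30, with medians of 1.59 for the flanking and 0.51 for the promoter peaks. In the 828 pairs with a lower one it was lower in 193 and higher in 28, with medians of -1.47 and -0.45. Pearson's r across the 5642 pairs was 0.41, against 0.07 for the combination over DMSO. The difference between these values was not tested. Flanking peaks also followed their chromosome. On chromosome X 12 peaks were higher and 136 lower in JJN3, with a median log2 difference of -0.85 over its 328 flanking peaks and -0.98 over all its peaks. Chromosome 4 had 37 higher and 209 lower (median -0.69), and chromosome 8 had 213 higher and 41 lower (median 0.55). Chromosomes 11 and 18 had medians of 0.51 and 0.49. Relative to the median of all peaks on their chromosome, 3098 of the 4053 called flanking peaks (76.4%) still differed by 2-fold or more in the same direction. Copy number was not measured.

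By gene list, calls between the lines ranged widely beside 31.9% of all peaks. Of 14 flanking peaks of ETS factor genes 3 were higher and 5 lower in JJN3 (57.1%), of 10 of interferon genes 4 and 1 (50%) and of 29 of myeloma regulators 9 and 4 (44.8%). Of 29 peaks of NF-kB response genes 1 was higher and 2 lower (10.3%), and of 23 of adhesion genes 1 and 2 (13%). Plasma cell surface and secretory genes had 0 higher and 5 lower of 18 (27.8%), at CD44, DERL3, EDEM1 and FCRL5. The median log2 difference of these 18 peaks was -0.02 against -0.08 over all peaks, with 9 above 0. The list of AP-1, BATF and other factor genes had 2 higher and 3 lower of 13 (38.5%), at BATF, FOSL1, MAFG and NFE2L1. The lists were compared with the background by count only.

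Few differences between the lines in drug response passed the adjusted threshold at flanking peaks, in a design with 1 library per line and treatment. A model with separate drug effects for each line, added after the data were seen, called a difference at 9 flanking peaks for pomalidomide (3 higher and 6 lower in JJN3, 0.0716% against 0.0675% of all peaks, of which 0.0193% higher and 0.0482% lower), 2 for GNE-781 (0.0159% against 0.00964%) and 2 for the combination (1 higher and 1 lower, 0.0159% against 0.0145%, of which 0.00643% higher and 0.00803% lower). At an unadjusted p under 0.05 there were 1073, 924 and 1018 of 12574 for these agents in that order. Of the peaks called over both lines, 185 of 188 under pomalidomide and 655 of 671 under the combination went the same way in both, which calling over both lines favours.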

How the data were processed

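ATAC-seq of 8 libraries was analysed from 1 table of raw counts per peak, deposited by the authors without normalization. Its name gives a MACS2 peak union with a q threshold of 0.01. The submitters' processing notes list MACS2 2.1.1.20160309, R 4.1.2, Bowtie2 2.3.5.1, Trim Galore 0.6.4, SAMtools 1.10 and cutadapt 2.5, and the build GRCh38. Whether reads or fragments were counted, how peaks were joined, and how duplicates, mitochondrial reads and the transposase offset were handled, is not given in the sources used here. Duplicate reads, if kept, would make intervals too narrow, and a union of peaks favours deeper libraries.

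Distance was 0 where a peak covered the start of the transcript in the authors' annotation, and otherwise the gap from the nearer peak edge. A gene named beside a peak is that transcript's gene, and regulation was not measured. Peaks averaging 2 CPM or more were tested with edgeR 4.0.16 in R 4.3.3 (TMM scaling, quasi-likelihood test, line as block, 1 effect per treatment, 3 residual and 62.8 prior degrees of freedom), two-sided, with Benjamini-Hochberg adjustment over all 62234 peaks. Line calls also needed a 2-fold change. Values per library are CPM, and fold changes are log2 values from the model with their SE, and log2 ratios within a line used a prior count of 2. Departure from the gene was tested with edgeR's diffSpliceDGE. DESeq2 1.42.0 was an alternative, as were another scaling, no filter, other distance limits and leaving out each library. Scripts were tested on simulated data, where 21% of 2-fold and 94% of 4-fold combination changes at flanking peaks were recovered. For departures from the gene the shares were 1% and 61%, so small changes are mostly missed. Additivity and line differences in drug response were not simulated. Counting intervals are at 95% and cover counting error only.

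Named peaks were the 8 rises and 8 falls with the lowest adjusted p per drug comparison among calls with the same sign in both lines and at least 20 counts, the 6 highest and 6 lowest called line differences without overlap, calls in 18 lists of 405 genes, the 5 lowest adjusted p for additivity and for departure from the gene, and 5 genes of the 27 tied at 2 calls, taken by name, of which AC008173.1, AC010145.4, AC096579.13 and C3orf52 had 2 falls each. Peaks with printed RefSeq windows were chosen after their values were seen. The members and lists were chosen with earlier results of these data known. Sequences are from RefSeq (GRCh38.p14), and whole-peak sequence was not used here.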

Additional observations from a re-analysis of the deposited data

Results flagged for a closer look

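At 13 flanking-peak comparisons the test of the JJN3 change minus the KMS11 change passed an adjusted p of 0.05 in edgeR. The drugs add in its model, and the spread of each peak is drawn toward a trend over all peaks. With pomalidomide, the peak in KALRN had a difference of -2.2 (adjusted p = 0.0293) and held 8 (JJN3) and 36 (KMS11) CPM under pomalidomide, 10.9 (JJN3) and 7.44 (KMS11) under GNE-781, 10.2 (JJN3) and 13.7 (KMS11) under the combination, and 12 (JJN3) and 5.95 (KMS11) under DMSO. The KMS11 pomalidomide library stood far above the other 7. FAM124B differed by 2.38 (0.0293), with 24.7 CPM under pomalidomide against 4.51 CPM under DMSO in JJN3, and 4.29 CPM under pomalidomide against 5.18 CPM under DMSO in KMS11. FAM124B held 5.13 (JJN3) and 6.47 (KMS11) CPM under GNE-781, and 41.7 (JJN3) and 11.8 (KMS11) under the combination, above DMSO in both lines. F13A1, the gene of coagulation factor XIII subunit A, differed by 2.63 (0.0109), with 25.3 against 6.01 CPM in JJN3 and 5.57 against 7.25 CPM in KMS11 for pomalidomide against DMSO. F13A1 held 5.77 (JJN3) and 8.41 (KMS11) CPM under GNE-781, and 17 (JJN3) and 3.38 (KMS11) under the combination. The other pomalidomide differences were -1.95 at FMO4 (0.0293), -2.6 at TBC1D22A (0.0495), -2.71 at ANKMY2 (0.0487), -2.1 at PNCK (0.0293), -1.82 at CTD-2351A8.1 (0.0109) and 2.9 at PLCH1 (0.0469).

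With GNE-781 the difference was 1.69 at RP11-317P15.4 and 1.81 at the CCNE2 peak 3725 bp from its start (adjusted p = 0.0386 each). That CCNE2 peak held 28.9 (JJN3) and 6.79 (KMS11) CPM under GNE-781, 16.3 (JJN3) and 24.2 (KMS11) under pomalidomide, 15 (JJN3) and 6.94 (KMS11) under the combination, and 23.3 (JJN3) and 20.7 (KMS11) under DMSO, so GNE-781 stood above DMSO in JJN3 and below it in KMS11. With both agents PLCH1, a phospholipase C gene, differed by 4.28 (adjusted p = 0.0396), with 14.5 (JJN3) and 1.25 (KMS11) CPM under the combination, 11.7 (JJN3) and 1.93 (KMS11) under pomalidomide, 4.49 (JJN3) and 2.26 (KMS11) under GNE-781, and 5.26 (JJN3) and 6.99 (KMS11) under DMSO. CTD-2351A8.1 differed by -2.39 (0.0213) under the combination. Because the drugs add in this model, each difference draws on the libraries of every treatment, the combination included. It is therefore not the ratio of a single drug library to DMSO. Each line and treatment had a single library, and no library was left out in this model.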

How the results depend on the processing

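Most counts of called flanking peaks depended on single libraries, on the tool and, by construction, on the distance range. With 1 to 5 kb the counts were 92 for pomalidomide, 0 for GNE-781, 354 for the combination, 74 for the combination against GNE-781 and 2082 for JJN3 against KMS11. DESeq2 called 22 for pomalidomide (100% higher), 0 for GNE-781, 95 for the combination, 0 for the combination against pomalidomide and 19 for the combination against GNE-781 (100% higher), and gave no adjusted p to 163 of the 671 combination calls. Scaling by promoter peaks alone, which moved the median pomalidomide change by -0.049, gave 99 for pomalidomide and 1 for GNE-781. A fit of the 4 compared libraries gave 10 for GNE-781, the distance to the peak centre 1, and the RefSeq distance, chosen after seeing the data, 0. DESeq2 ended 13 of 21 named calls under pomalidomide and 18 of 36 under the combination. By RefSeq distance 516 peaks were called under the combination, of which 311 were among the 671. Leaving out 1 library gave 14 to 243 for pomalidomide, 0 to 6 for GNE-781, 99 to 734 for the combination, 0 to 6 for the combination against pomalidomide, 15 to 201 for the combination against GNE-781, 3793 to 4144 for JJN3 against KMS11, 4 to 141 for departures from the gene and 0.214 to 0.467 points for the share of counts. The lone remaining sample is then assumed to vary like the others. The low ends came without KMS11 DMSO for pomalidomide (17 without KMS11 pomalidomide), without the KMS11 combination for the combination (127 without KMS11 DMSO, 300 without the JJN3 combination) and without KMS11 GNE-781 for the combination against GNE-781 (21 without the KMS11 combination, 83 without the JJN3 combination). The 42.5% of combination calls that were higher became 55.6% without the KMS11 combination, 50.3% without the JJN3 combination and 37% without KMS11 DMSO. For pomalidomide 84% were higher, and 95.6% and 71.4% without JJN3 pomalidomide and KMS11 DMSO. The pomalidomide change at HSP90AA1 ranged from -1.98 without JJN3 DMSO to 0.2 without KMS11 DMSO. The cause of these moves was not tested. No paired analysis was possible because the labels carry no replicate numbers that pair libraries within a line, beyond the line itself, by which the model already pairs treated and DMSO libraries. Departure from additivity had 0 calls in each alternative.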
